A study of Homo sapiens with 9 samples.

Results

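The classical cadherins and catenins are the adhesion receptors of the adherens junction and the proteins that bind their tails inside the cell. The genes described are 10 of the 42717 in the table, found by symbol: CDH1 (E-cadherin), CDH2 (N-cadherin), CDH3 (P-cadherin), CDH11 (OB-cadherin), CDH13 (T-cadherin), CTNNB1 (β-catenin), JUP (plakoglobin, also called γ-catenin), CTNND1 (p120-catenin), CTNNA1 (αE-catenin) and CTNNA2 (αN-catenin). Their mRNA was measured by RNA-seq in cells of S2-007, S2-028 and S2-020, all derived from the pancreatic ductal adenocarcinoma (PDAC) line SUIT-2, with 3 libraries per line and 9 in all. All were grown in DMEM with 10% inactivated fetal bovine serum, and the labels name no treatment. The study sorted the lines by maspin, a serine protease inhibitor family protein encoded by SERPINB5: S2-007 carries it in the nucleus and the cytoplasm (panMaspin), S2-028 in the cytoplasm (cytMaspin), and S2-020 has it only weakly. Each maspin state is represented by 1 line, so it cannot be told apart from anything else that differs between the lines. The labels do not say that libraries came from separate cultures, and p-values therefore measure the spread between these libraries only.

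In an epithelial sheet, E-cadherin molecules of neighbouring cells bind each other outside the cell. The cadherin tail binds β-catenin or its close relative plakoglobin, which binds α-catenin, which in turn holds actin. The p120-catenin binds nearer the membrane and keeps the cadherin from being taken up and degraded. T-cadherin has no such tail and is held in the membrane by a lipid anchor. β-catenin also carries Wnt signals to the nucleus, and plakoglobin is a part of desmosomes as well. A shift from E-cadherin to N-cadherin is a textbook mark of the epithelial-mesenchymal transition, in which repressors such as ZEB1 and SNAI1 bind a short DNA motif, CAGGTG, before the start of CDH1.

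In the comparisons with S2-020, JUP had the largest differences of the catenins and CDH2 differed in the opposite direction, so the DNA before their starts is shown. The RefSeq promoter table (GRCh38.p14) was matched by symbol for 5 of the 10 members, namely CDH2, CTNNB1, CTNNA1, CTNNA2 and JUP, and not for CDH1, CDH3, CDH11, CDH13 and CTNND1. The stretches below run from 5′ to 3′ on the minus strand and end at the base before the outermost start of each gene, at chr18:28177131-28177380 for CDH2 and chr17:41786712-41786961 for JUP. Capitals mark CG, the dinucleotide at which human DNA is methylated.
CDH2: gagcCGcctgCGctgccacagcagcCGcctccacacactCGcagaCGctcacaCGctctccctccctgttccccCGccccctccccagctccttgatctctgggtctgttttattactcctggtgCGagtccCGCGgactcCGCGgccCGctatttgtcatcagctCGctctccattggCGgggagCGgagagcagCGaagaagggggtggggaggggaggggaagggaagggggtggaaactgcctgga
JUP: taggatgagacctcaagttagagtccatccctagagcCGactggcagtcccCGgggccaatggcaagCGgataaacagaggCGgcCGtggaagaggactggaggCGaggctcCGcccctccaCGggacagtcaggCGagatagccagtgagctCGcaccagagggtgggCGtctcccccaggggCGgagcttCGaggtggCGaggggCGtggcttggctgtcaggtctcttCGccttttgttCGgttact
Each held 17 CG, where the median of 35116 promoter windows of the same 250 bases was 11. G and C made up 66.0% of the CDH2 window and 63.6% of the JUP window, against a median of 58.0%. CAGGTG, searched on both strands (CACCTG on the other), was in neither window, and 17.5% of all windows held at least 1 copy. A further CDH2 start lies inside the gene, and the window before it (chr18:28036642-28036891) held 4 CG, 42.0% G and C and no copy. A further JUP transcript starts inside the gene at 41785976, and the window before it held 13 CG and 2 copies in opposite orientation. At least 2 copies were in 2.53% of all windows. The first bases of these copies lay 54 and 43 bases before that start, within chr17:41786007-41786036 on the minus strand, where capitals mark the motif.
JUP inner start: tggcccCACCTGccgagCAGGTGagcgcac
No window of CTNNB1, CTNNA1 or CTNNA2 held a copy, so this inner window was the only one of the matched members that did. It was picked out after all of them were searched. A match of letters is a description of the DNA and does not show that a protein binds there.

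Between 60328748 and 86253923 reads per library were assigned to genes. Levels are given as CPM, the reads of a gene scaled to the size of its library, with library sizes adjusted by the TMM method to even out composition. Replicate libraries resembled each other more than they did other lines: across genes, which are not independent replicates, Pearson's r of log2 CPM was 0.976 to 0.981 for pairs from the same line and 0.941 to 0.951 for pairs from different lines. SERPINB5 mRNA was 212 ± 9.10 CPM (SD, n = 3) in S2-007, 6.55 ± 0.428 in S2-020 and 27.7 ± 2.75 in S2-028, and all pairs of lines were called different for it. All 5 epithelial markers (EPCAM, KRT7, KRT8, KRT18 and KRT19) were above 1 CPM in every line, and their summed level ranged from 9482 to 10021 CPM in S2-007, from 4303 to 5422 in S2-020 and from 15039 to 17659 in S2-028. The acinar and islet lists summed to at most 0.572 and 0.754 CPM in any library, and of the leukocyte, endothelial, fibroblast and neural lists only CD68, PECAM1, COL1A1 and SYT1 reached a mean of 1 CPM in a line. The leukocyte list summed to 38.9 to 43.6 CPM in S2-007, 7.73 to 9.28 in S2-020 and 10.4 to 12.3 in S2-028. The part of these differences in the results was not tested.

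Every pair of lines was compared with edgeR's quasi-likelihood test, and a call needed both a p under 0.05 after Benjamini-Hochberg adjustment and a difference of 1.5-fold or more, up or down. All 10 members passed the filter on low counts in each comparison. Comparing S2-020 with S2-007, 6 of the 10 members were called, 2 higher and 4 lower in S2-020, beside a background of 21.6% of the 26657 genes tested (9.57% higher and 12.1% lower). S2-028 against S2-020 called 5 members, 4 higher and 1 lower in S2-028, with a background of 22.2% of 26031 genes (12.1% higher and 10.1% lower). S2-028 against S2-007 called 2 members, 1 in each direction, and 18.4% of the 26371 genes tested were called there (10.2% higher and 8.19% lower). Values of 8, 7 and 6 members did not overlap between the lines compared, where the same held for 48.5%, 48.9% and 43.3% of all genes. The median log2 fold change of the members was -0.17, 0.49 and 0.25, beside -0.05, 0.02 and 0.00 over all genes tested. The 3 comparisons share libraries in pairs, so their values are given side by side and are not independent of each other.

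**Figure D1:**
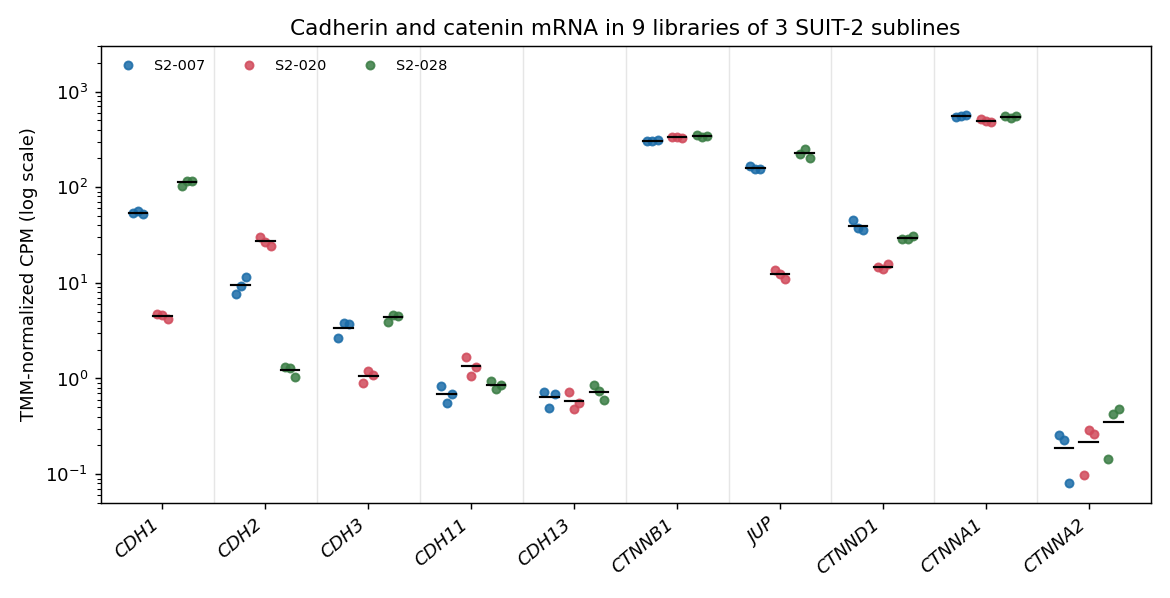
Level of the 10 cadherin and catenin genes in TMM-normalized CPM (vertical axis, log scale) in each of the 9 libraries. Points are libraries, colours are lines and bars are the mean of 3. CDH1 and JUP are lowest in S2-020 (4.54 and 12.4 CPM on average), CDH2 is highest there (27.2 CPM), and CTNNB1 and CTNNA1 stay between 302 and 569 CPM in all libraries.

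CDH1 (NCBI gene 999, chromosome 16 from 68737292 to 68835537 on the plus strand) had 54.0, 56.8 and 52.0 CPM in the S2-007 libraries, 4.75, 4.65 and 4.24 in S2-020 and 104, 117 and 117 in S2-028. No library of one line lay within the range of another, and the order was S2-020, S2-007, S2-028. E-cadherin mRNA was 12.2-fold lower in S2-020 than in S2-007 (log2 fold change -3.61, standard error (SE) 0.0840, quasi-likelihood test of edgeR, adjusted p = 1.42e-17). It was 2.08-fold higher in S2-028 than in S2-007 (log2 fold change 1.05, SE 0.0666, adjusted p = 3.93e-11). Between S2-028 and S2-020 the difference was 24.7-fold (log2 fold change 4.63, SE 0.0803, adjusted p = 5.97e-19), which ranks CDH1 189 of 26031 genes from the largest increase. In bulk RNA, fewer cells with the transcript and less of it per cell cannot be told apart. Leaving out any single library kept these log2 fold changes between -3.64 and -3.56, between 1.01 and 1.10 and between 4.58 and 4.68.

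CDH2 (gene 1000, chromosome 18 from 27932879 to 28177130, minus strand) encodes the cadherin of neurons and of many mesenchymal cells. It had 7.73, 9.36 and 11.6 CPM in S2-007, 30.5, 26.6 and 24.5 in S2-020 and 1.32, 1.28 and 1.03 in S2-028. The order of the lines was the reverse of that of CDH1, again without overlap, and the S2-028 values rest on 63 to 82 reads per library. N-cadherin mRNA was 2.79-fold higher in S2-020 than in S2-007 (log2 fold change 1.48, SE 0.118, quasi-likelihood test of edgeR, adjusted p = 2.78e-09). In S2-028 it was 7.83-fold lower than in S2-007 (log2 fold change -2.97, SE 0.189, adjusted p = 4.19e-11) and 22.3-fold lower than in S2-020 (log2 fold change -4.48, SE 0.137, adjusted p = 2.11e-15). The last of these was the difference ranked 74 of 26031 from the largest decrease.

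CDH3 (gene 1001, chromosome 16 from 68645310 to 68733771, plus strand) lies 3521 bases before CDH1 and encodes P-cadherin, a classical cadherin of basal epithelial layers. Its level was 2.64, 3.79 and 3.75 CPM in S2-007, 0.891, 1.202 and 1.09 in S2-020 and 3.91, 4.63 and 4.49 in S2-028. S2-020 was below all libraries of the other lines, while the S2-007 and S2-028 values nearly met. P-cadherin mRNA fell by 1.70 on the log2 scale from S2-007 to S2-020 (SE 0.225, quasi-likelihood test of edgeR, adjusted p = 2.98e-06) and was 4.09-fold higher in S2-028 than in S2-020 (log2 fold change 2.03, SE 0.209, adjusted p = 1.30e-07). The difference of 0.36 between S2-028 and S2-007 (SE 0.185, adjusted p = 0.156) did not pass.

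CDH11 (gene 1009, chromosome 16 from 64943753 to 65123744, minus strand), known from osteoblasts and fibroblasts, was near 1 CPM throughout, with 0.828, 0.551 and 0.692 CPM in S2-007, 1.67, 1.06 and 1.31 in S2-020 and 0.934, 0.783 and 0.853 in S2-028. The S2-020 libraries were the 3 highest. It was called higher in S2-020 than in S2-007 (log2 fold change 0.93, SE 0.301, quasi-likelihood test of edgeR, adjusted p = 0.0177), but this call rests on single libraries: it was lost without S2-020 replicate 1 (0.74, adjusted p = 0.103) and without S2-007 replicate 2 (0.80, adjusted p = 0.0665). It was lost as well when a 1.5-fold change was the null hypothesis (adjusted p = 0.254). S2-028 differed from S2-007 by 0.31 (SE 0.345) and from S2-020 by -0.65 (SE 0.292) on the log2 scale, and neither passed (adjusted p = 0.570 and 0.0892).

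CDH13 (gene 1012, chromosome 16 from 82626969 to 83800640, plus strand) had between 0.497 and 0.721 CPM in S2-007, between 0.481 and 0.724 in S2-020 and between 0.590 and 0.854 in S2-028, from 36 to 54 reads per library. These ranges overlapped in every pair of lines. The log2 fold changes were 0.19 (S2-028 minus S2-007), -0.15 (S2-020 minus S2-007) and 0.31 (S2-028 minus S2-020), with SEs of 0.369 to 0.372 and adjusted p of 0.770, 0.804 and 0.576. No difference of T-cadherin mRNA passed the test, which at these SEs does not show that the levels were alike. Of its exon bases, 21.4% lie under CDH13-AS2 on the opposite strand, and how strand was treated in counting is not given.

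**Figure D2:**
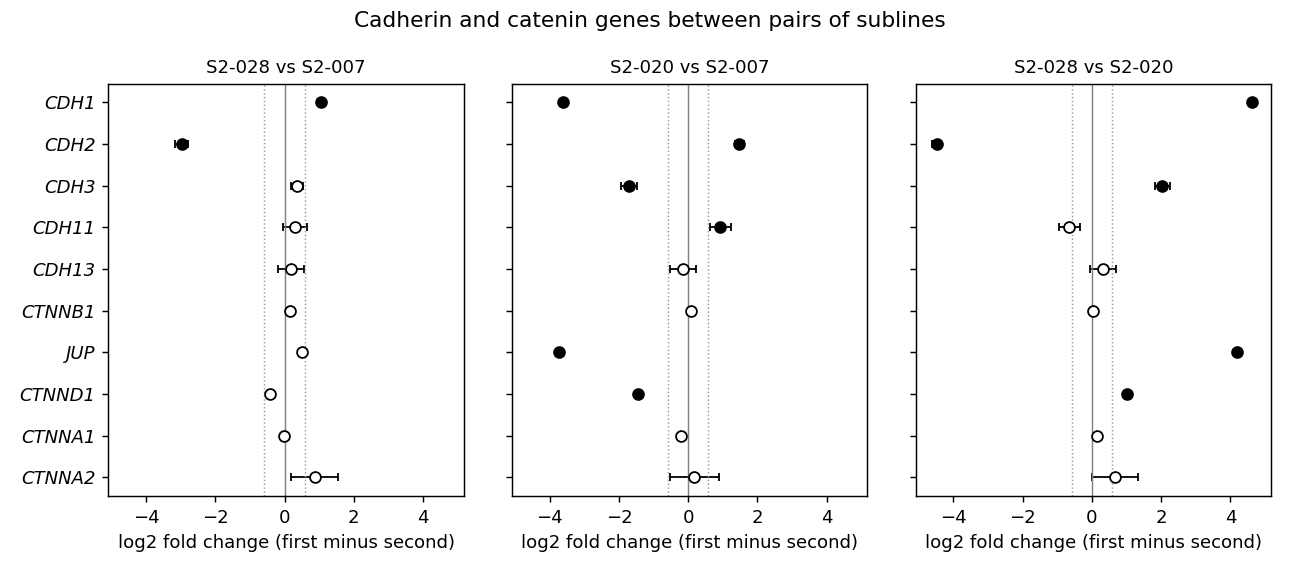
Log2 fold change of each member (horizontal axis, first-named line minus second) in the 3 comparisons of lines, with bars of 1 standard error (SE). Filled circles are called, open circles are not, and dotted lines mark a 1.5-fold difference up and down. CDH1 and CDH2 are filled on opposite sides in every panel, CDH1 and JUP lie far from 0 on the same side in the comparisons of S2-020 with S2-007 (-3.61 and -3.72) and of S2-028 with S2-020 (4.63 and 4.19), and CTNNB1 and CTNNA1 lie inside the dotted lines throughout.

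To set different genes side by side, CPM was divided by the kilobases of all annotated exons of the gene together (GENCODE v44). On this per-length scale E-cadherin reached 8.93 CPM per kilobase in S2-007, 0.748 in S2-020 and 18.5 in S2-028, and N-cadherin 1.11, 3.17 and 0.141. P-cadherin reached 0.531, 0.166 and 0.680. CDH1, CDH2, CDH3 and CDH11, the members whose proteins bind catenins, summed to 10.6 ± 0.413 CPM per kilobase (SD, n = 3) in S2-007, 4.18 ± 0.388 in S2-020 and 19.4 ± 1.22 in S2-028. E-cadherin made up 84.1% ± 2.72 of that sum in S2-007, 17.9% ± 0.814 in S2-020 and 95.4% ± 0.129 in S2-028. With coding length in place of exon length the shares were 81.0%, 14.3% and 94.8%, and their order was kept. CDH24, a further classical cadherin named here for its level, is not a member, so sum and shares leave it out. It had 12.8, 11.9 and 16.0 CPM in S2-007, 13.3, 13.9 and 13.9 in S2-020 and 16.2, 14.9 and 15.9 in S2-028. N-cadherin was thus the higher of the pair per length in the S2-020 libraries, with 2.86 to 3.55 CPM per kilobase against 0.697 to 0.781 for E-cadherin, and the summed level of S2-020 remained below that of the other lines.

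**Figure D3:**
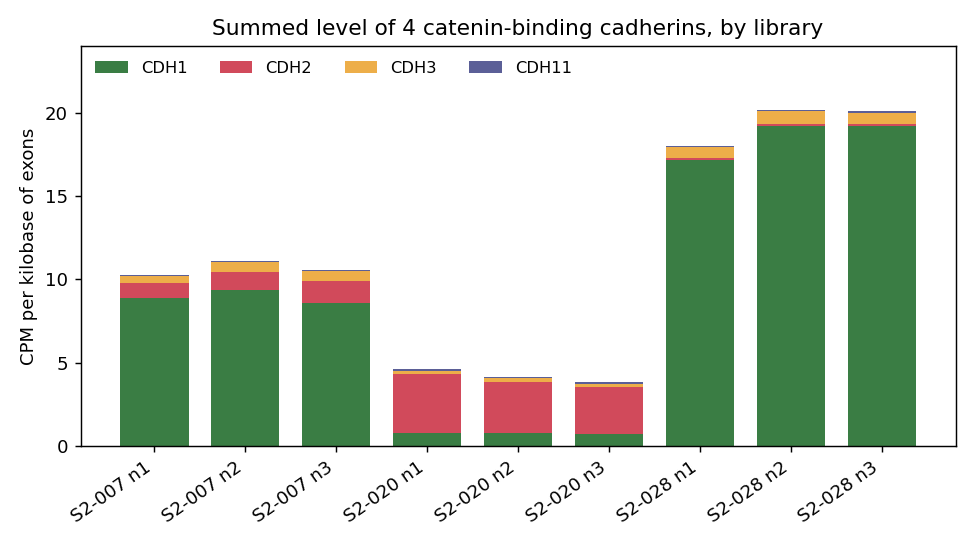
Summed level of CDH1, CDH2, CDH3 and CDH11 in each library, in CPM per kilobase of exons (vertical axis from 0), with 1 colour per gene. E-cadherin fills most of the S2-007 bars (84.1% on average) and nearly all of the S2-028 bars (95.4%), whereas the shorter S2-020 bars are mostly N-cadherin.

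CTNNB1 (gene 1499, chromosome 3 from 41199505 to 41240443, plus strand) was close to level across the lines, with 302, 305 and 313 CPM in S2-007, 334, 335 and 328 in S2-020 and 349.7, 335 and 339.7 in S2-028. The S2-007 libraries were the 3 lowest, and those of S2-020 and S2-028 overlapped. S2-028 was 0.16 above S2-007 on the log2 scale (SE 0.0550, quasi-likelihood test of edgeR, adjusted p = 0.0293), short of the fold threshold. The differences of 0.09 between S2-020 and S2-007 (SE 0.0465, adjusted p = 0.166) and of 0.04 between S2-028 and S2-020 (SE 0.0462, adjusted p = 0.554) did not pass. All of them stayed positive under every scaling tried.

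JUP (gene 3728, chromosome 17 from 41754609 to 41786711, minus strand), whose promoter stretches stand above, had 168, 154 and 154 CPM in S2-007, 13.8, 12.4 and 11.0 in S2-020 and 225, 253 and 199.95 in S2-028. The lines did not overlap, and their order was that of CDH1. Plakoglobin mRNA was 13.1-fold lower in S2-020 than in S2-007 (log2 fold change -3.72, SE 0.0789, quasi-likelihood test of edgeR, adjusted p = 3.70e-18) and 18.3-fold higher in S2-028 than in S2-020 (log2 fold change 4.19, SE 0.0920, adjusted p = 1.76e-17). Between S2-028 and S2-007 it differed by 0.51 (SE 0.0740, adjusted p = 9.75e-06), under the fold threshold, and without S2-028 replicate 3 it passed (0.59, adjusted p = 5.58e-07).

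β-catenin and plakoglobin compete for the same stretch of the cadherin tail. Plakoglobin reached 32.2 CPM per kilobase of exons in S2-007, 2.50 in S2-020 and 45.7 in S2-028, and β-catenin 26.1, 28.3 and 29.04. Plakoglobin was 55.2% ± 1.58 (SD, n = 3) of the pair in S2-007, 8.12% ± 0.781 in S2-020 and 61.0% ± 2.99 in S2-028 by exon length, but 35.9%, 3.85% and 41.6% by coding length, so which gene is the higher in S2-007 and S2-028 depends on the length used. That S2-020 has the lowest plakoglobin share does not. The pair summed to 58.2 ± 1.41 CPM per kilobase in S2-007, 30.8 ± 0.580 in S2-020 and 74.8 ± 5.19 in S2-028, and in each line this was above the sum of the 4 cadherins.

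CTNND1 (gene 1500, chromosome 11 from 57761802 to 57819540, plus strand) had 45.2, 37.2 and 35.8 CPM in S2-007, 14.7, 13.8 and 15.7 in S2-020 and 28.8, 28.7 and 31.02 in S2-028. The lines did not overlap, and here S2-007 was the highest. p120-catenin mRNA was 2.74-fold lower in S2-020 than in S2-007 (log2 fold change -1.45, SE 0.0932, quasi-likelihood test of edgeR, adjusted p = 9.36e-11) and 2.01-fold higher in S2-028 than in S2-020 (log2 fold change 1.01, SE 0.0869, adjusted p = 1.18e-08). Against S2-007 the log2 fold change of S2-028 was -0.42 (SE 0.0906, adjusted p = 0.000892), which does not reach the fold threshold. These levels are uncertain, because 40.6% of the 31-base words of CTNND1 transcripts also occur in other genes and 39.1% of its exon bases lie under a gene on the same strand. The table counts the readthrough gene TMX2-CTNND1 apart, with 4.48, 4.77 and 4.98 CPM in S2-007, 2.84, 2.55 and 1.90 in S2-020 and 3.38, 3.65 and 3.39 in S2-028. Its log2 fold change was -0.995 in S2-020 against S2-007 (SE 0.182, adjusted p = 0.000148), the same direction as CTNND1.

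CTNNA1 (gene 1495, chromosome 5 from 138753425 to 138935034, plus strand), the α-catenin of epithelia, had the highest level per length of the 10 members in every line, with 62.9, 56.0 and 61.7 CPM per kilobase of exons in S2-007, in S2-020 and in S2-028. Its CPM was 547, 551 and 569 in S2-007, 516, 489.6 and 478 in S2-020 and 553, 532 and 551 in S2-028. S2-020 lay below all other libraries by a small step, and S2-007 and S2-028 overlapped. The log2 fold changes were -0.20 for S2-020 against S2-007 (SE 0.0471, quasi-likelihood test of edgeR, adjusted p = 0.00175), 0.14 for S2-028 against S2-020 (SE 0.0467, adjusted p = 0.0195) and -0.02 for S2-028 against S2-007 (SE 0.0531, adjusted p = 0.799), none of them past the fold threshold.

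CTNNA2 (gene 1496, chromosome 2 from 79185377 to 80648780, plus strand), the α-catenin of neurons, was barely detected, with 6 to 29 reads per library. Its level was 0.0815 to 0.254 CPM in S2-007, 0.0974 to 0.288 in S2-020 and 0.145 to 0.475 in S2-028, all overlapping. The log2 fold changes of 0.88, 0.17 and 0.67 (S2-028 against S2-007, S2-020 against S2-007 and S2-028 against S2-020) had SEs of 0.680, 0.708 and 0.658 and adjusted p of 0.385, 0.886 and 0.480, and the second lay between -0.16 and 0.52 with single libraries left out. Among the 4 neural markers only SYT1 reached a mean of 1 CPM in a line.

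The genes around each member were described by the 50 tested genes nearest to it on its chromosome. Over all genes tested, 9.57% were called higher and 12.1% lower in S2-020 against S2-007. The shares were 10.2% and 8.19% in S2-028 against S2-007, and 12.1% and 10.1% in S2-028 against S2-020. They are the background for the counts here and for those of the gene lists below. Around CDH1, within 1.22 Mb, the median log2 fold change was 0.56 in S2-020 against S2-007, and 21 of the 50 were called higher, among them HAS3 (1.49), SNTB2 (1.11) and SLC7A6 (1.07), which are named here for their size. CDH3 was the 1 gene called lower. Of these 50 neighbours, CDH3 among them, 42 had a positive value and 8 a negative one. Whether the surroundings of a member have a part in its level was not tested. Between S2-028 and S2-020 the median of these neighbours was -0.74, with 28 called lower and 2 higher (CDH3 and ESRP2), and between S2-028 and S2-007 it was -0.13. Around JUP the median was 0.01 in S2-028 against S2-007, with 4 called higher and 7 lower. It was 0.46 in S2-028 against S2-020, with 14 called higher and 3 lower. In S2-020 against S2-007 the median around JUP was -0.40, with 16 called lower and 2 (ZNF385C and CAVIN1) higher. Of its 12 keratin neighbours 7 were called lower, of which KRT13 (-6.39), KRT17 (-4.90), KRT23 (-4.69) and KRT19 (-4.40) are named for their size, and without the keratin genes the median was -0.34. Around CDH2 the medians were -0.09 in S2-020 against S2-007, 0.19 in S2-028 against S2-007 and 0.08 in S2-028 against S2-020, while those around CTNND1 were -0.09, -0.04 and 0.09.

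**Figure D4:**
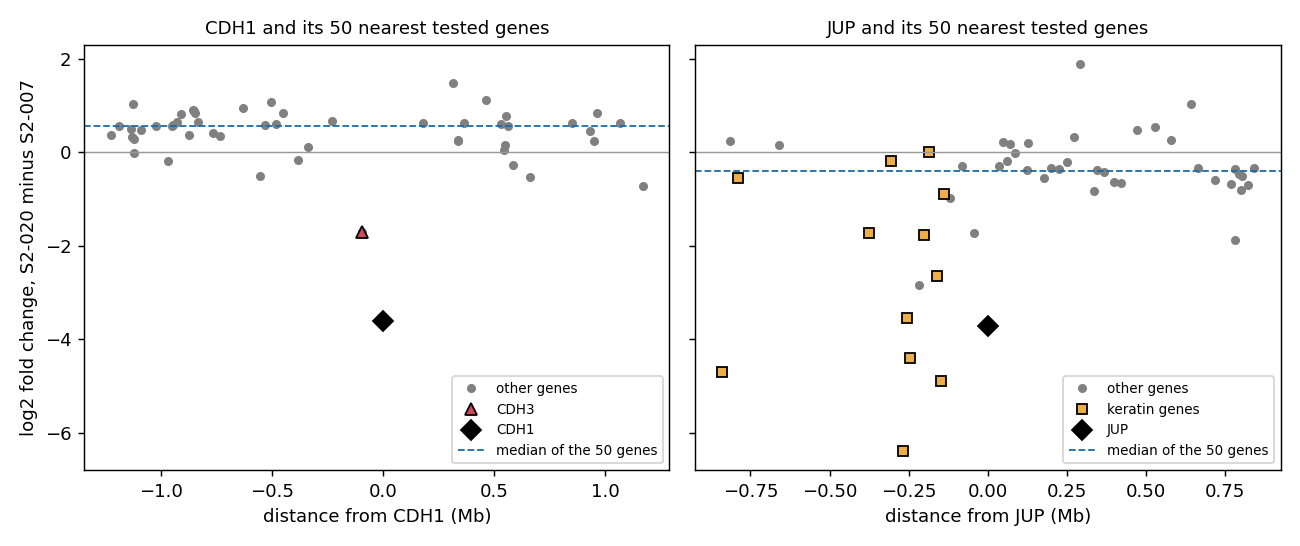
Log2 fold change of S2-020 minus S2-007 (vertical axis) for CDH1 and for JUP (diamonds) and for the 50 tested genes nearest to each, against their distance in Mb (horizontal axis). Dashed lines are the medians of the 50 genes, 0.56 around CDH1 and -0.40 around JUP. CDH1 and CDH3 (triangle) lie below the line of their neighbours, and 7 of the 12 keratin genes near JUP (squares) were called lower.

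Other classical cadherins were mostly at low levels, CDH24 apart. Of 14 further classical cadherins, 11 to 13 could be tested and the only gene called was CDH15 (M-cadherin, known from muscle), which had 0.160, 0.403 and 0.570 CPM in S2-007, 1.52, 1.19 and 1.91 in S2-020 and 0.387, 1.11 and 0.541 in S2-028. It was higher in S2-020 than in S2-007 (log2 fold change 1.99, quasi-likelihood test of edgeR, adjusted p = 0.000217) and lower in S2-028 than in S2-020 (-1.17, adjusted p = 0.0125). The medians of this list were -0.03 in S2-020 against S2-007, 0.18 in S2-028 against S2-007 and -0.36 in S2-028 against S2-020. The atypical cadherins do not bind catenins in the classical way, and some had high levels. FAT1 and CLSTN1, named here for their level, had 494 to 817 and 312 to 452 CPM over the 9 libraries. All 20 atypical cadherins were tested. In S2-020 against S2-007, 4 of them were higher (FAT4, CDHR3, CELSR1 and CELSR2) and 5 lower (CDH17, CDHR2, CDH23, CLSTN3 and DCHS1), and S2-028 against S2-007 called FAT4 and CDHR3 higher and CDH17, CDHR2 and CDH23 lower. S2-028 against S2-020 called CLSTN3 higher and CDH17, CELSR1 and FAT4 lower. The atypical cadherins had medians of 0.05, -0.02 and -0.31 in these comparisons. FAT4, a giant cadherin of planar cell polarity, had 7.12, 6.85 and 7.11 CPM in S2-007, 62.4, 61.1 and 63.1 in S2-020 and 33.99, 31.02 and 31.3 in S2-028. CDH17, the liver-intestine cadherin, went from 19.4, 23.8 and 30.1 CPM in S2-007 to 6.67, 6.51 and 3.22 in S2-020 and 0.0966, 0.297 and 0.0820 in S2-028. Lines did not overlap for either gene. CELSR1, another polarity cadherin, was 1.03 higher on the log2 scale in S2-020 than in S2-007 (adjusted p = 7.36e-12).

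Of the 6 tested relatives and binders of the catenins, 2 were called, both higher in S2-028 than in the other lines. ARVCF, a p120-catenin relative, had 21.5, 19.3 and 18.9 CPM in S2-007, 17.2, 16.6 and 14.6 in S2-020 and 54.7, 49.7 and 49.7 in S2-028, that is 1.37 on the log2 scale over S2-007 (quasi-likelihood test of edgeR, adjusted p = 1.96e-11) and 1.67 over S2-020 (adjusted p = 2.36e-12). CTNNBIP1, which blocks β-catenin from binding TCF factors, was 1.16 and 0.95 higher (adjusted p = 2.43e-10 and 1.07e-07). In S2-020 against S2-007 none of the 6 was called, and the median was 0.00, beside 0.10 in S2-028 against S2-007 and 0.23 in S2-028 against S2-020.

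The 26 adherens junction partners (nectins, actin linkers and adaptors) were all tested. In S2-020 against S2-007, 6 were called higher and 6 lower with a median of 0.12, in S2-028 against S2-020 7 higher and 8 lower with a median of 0.14, and in S2-028 against S2-007 3 higher (NECTIN2, NECTIN4 and TJP1) and 5 lower (AJUBA, EVL, CAMSAP3, LIMA1 and WTIP) with a median of -0.02. NECTIN1, an adhesion receptor beside the cadherins, had 139.8, 132 and 149.5 CPM in S2-007, 16.9, 17.5 and 17.1 in S2-020 and 122, 118 and 115 in S2-028. Its log2 fold change in S2-020 against S2-007 was -3.06 (SE 0.0618, adjusted p = 1.71e-18). PLEKHA7, which ties p120-catenin to microtubules, CAMSAP3, its partner there, and MAGI1, a scaffold, were called lower in S2-020 than in S2-007 as well. Their log2 fold changes were -1.77, -1.98 and -1.42. Those of NECTIN3 and of KIFC3, a microtubule motor on the same list, went the other way, at 1.04 and 1.31. These genes were picked from the list after their values were seen. LIMA1, an actin linker of α-catenin, had 346, 364 and 334 CPM in S2-007, 112, 111 and 108 in S2-020 and 208, 207 and 187 in S2-028. AJUBA, a LIM adaptor that binds α-catenin, was lowest in S2-028, with 44.7, 39.0 and 53.7 CPM in S2-007, 87.8, 78.6 and 69.1 in S2-020 and 7.62, 7.75 and 8.98 in S2-028.

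For the 13 genes of cadherin turnover (kinases, phosphatases, proteases and modifiers that act on the cadherin complex), S2-020 against S2-007 called 4 higher (MGAT3, FYN, PTPN1 and PTPRM) and 2 lower (SRC and PTPRF). S2-028 against S2-007 called FYN higher and PTPRF lower, and S2-028 against S2-020 called SRC higher and MGAT3 lower. Their medians were 0.10, 0.03 and -0.03. MGAT3, which adds the bisecting sugar to N-glycans, those of E-cadherin among them, had 1.63, 1.37 and 1.68 CPM in S2-007, 27.8, 26.2 and 28.8 in S2-020 and 1.39, 1.39 and 1.84 in S2-028. The S2-020 libraries stood apart (log2 fold change 4.11 against S2-007, SE 0.114, quasi-likelihood test of edgeR, adjusted p = 2.14e-16). SRC, the kinase, had a log2 fold change of -1.42 in S2-020 against S2-007 (adjusted p = 5.07e-14), and PTPRF, a receptor phosphatase, of -1.26 (adjusted p = 9.75e-13).

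On the signalling side of β-catenin, 18 genes of its destruction complex and of the TCF/LEF transcription complex were tested. S2-020 against S2-007 called 5 higher (PYGO1, AMER1, AXIN2, APC2 and GSK3A) and 2 lower (TCF7L2 and TCF7L1), with a median of 0.25. In S2-028 against S2-007, PYGO1, AMER1 and GSK3A were higher and TCF7L1 was lower, and in S2-028 against S2-020 TCF7L2 and LEF1 were higher and PYGO1, AMER1, AXIN2 and TCF7 lower, with medians of 0.19 and -0.13. TCF7L2, a DNA-binding partner of β-catenin, had 90.4, 95.4 and 88.1 CPM in S2-007, 35.5, 35.9 and 40.2 in S2-020 and 64.1, 66.1 and 69.7 in S2-028. AMER1, a scaffold of the destruction complex, had 8.83, 9.25 and 8.42, then 26.1, 27.0 and 25.2, then 15.4, 17.2 and 12.7 CPM in the same order of lines. PYGO1, a coactivator, was 2.83 higher on the log2 scale in S2-020 than in S2-007 (adjusted p = 1.16e-11).

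Of 10 common target genes of β-catenin, 3 of which also stand on the list before, 1 was called higher (AXIN2) and 2 lower (RNF43 and LGR5) in S2-020 against S2-007. S2-028 against S2-007 called 1 higher (ZNRF3) and 2 lower (LGR5 and NOTUM), and S2-028 against S2-020 called 2 higher (RNF43 and LEF1) and 4 lower (NOTUM, LGR5, AXIN2 and TCF7). The medians were 0.25, 0.34 and -0.08. They did not move in one direction: RNF43, a ubiquitin ligase that removes Wnt receptors, had 35.8, 38.4 and 37.6 CPM in S2-007, 2.03, 1.59 and 1.37 in S2-020 and 44.1, 61.3 and 49.4 in S2-028. LGR5, a stem cell receptor, had 30.1, 34.8 and 36.5 CPM in S2-007, 7.57, 7.09 and 4.84 in S2-020 and 3.16, 3.85 and 3.39 in S2-028. The first was lowest in S2-020 and the second in S2-028.

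Of the repressors of CDH1, 7 of 8 were tested, and ZEB1 was the only one called in all 3 comparisons. The median of the list was 0.52 in S2-020 against S2-007, -0.44 in S2-028 against S2-007 and -0.23 in S2-028 against S2-020. ZEB1 had 38.5, 35.8 and 39.7 CPM in S2-007, 77.4, 73.0 and 71.0 in S2-020 and 14.96, 12.4 and 15.4 in S2-028. Its lines did not overlap and stood in the order of CDH2, with log2 fold changes of 0.93 in S2-020 against S2-007 (SE 0.0618, quasi-likelihood test of edgeR, adjusted p = 1.71e-10), -1.41 in S2-028 against S2-007 (SE 0.0945, adjusted p = 9.55e-11) and -2.37 in S2-028 against S2-020 (SE 0.0836, adjusted p = 1.76e-14). SNAI2 had 11.9, 15.6 and 16.1 CPM in S2-007 and between 0.251 and 0.781 in all libraries of the other lines, log2 fold changes of -4.56 for S2-020 and -4.75 for S2-028 against S2-007, and so it was highest in the line where CDH1 was intermediate. SNAI1 was low everywhere (0.294 to 1.31 CPM) and was called higher than S2-007 in S2-020 (1.32, adjusted p = 0.00767) and in S2-028 (1.40, adjusted p = 0.00725). TCF3 and ZEB2 were called lower in S2-028 than in S2-020 (-0.76 and -1.25), and KLF8 and TWIST2 were not called in any comparison. TWIST1 had at most 13 reads in a library and did not pass the filter.

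Epithelial regulators, transcription and splicing factors that keep epithelial genes on, were described by 9 genes. In S2-020 against S2-007, 7 of 9 were lower and none higher, with a median of -1.28, and in S2-028 against S2-020 7 were higher and 1 (ELF3) lower, with a median of 2.54. S2-028 against S2-007 called 6 higher and 2 lower (KLF5 and ELF3), with a median of 1.25. ESRP1, which directs epithelial splicing, CTNND1 among its targets, had 39.0, 36.8 and 30.2 CPM in S2-007, 0.779, 0.349 and 0.669 in S2-020 and 156, 156 and 139 in S2-028. GRHL2, a transcription factor that acts on CDH1, had 28.3, 30.2 and 24.7 CPM in S2-007, 14.2, 15.8 and 16.9 in S2-020 and 170.1, 162 and 163 in S2-028. Both had the order of CDH1 without overlap, and their log2 fold changes were -5.93 and -0.86 in S2-020 against S2-007 and 2.09 and 2.57 in S2-028 against S2-007. EHF, an epithelial ETS factor, had its highest level in S2-007 (403, 413 and 364 CPM), with 129, 122 and 108 in S2-020 and 297, 302 and 275 in S2-028.

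**Figure D5:**
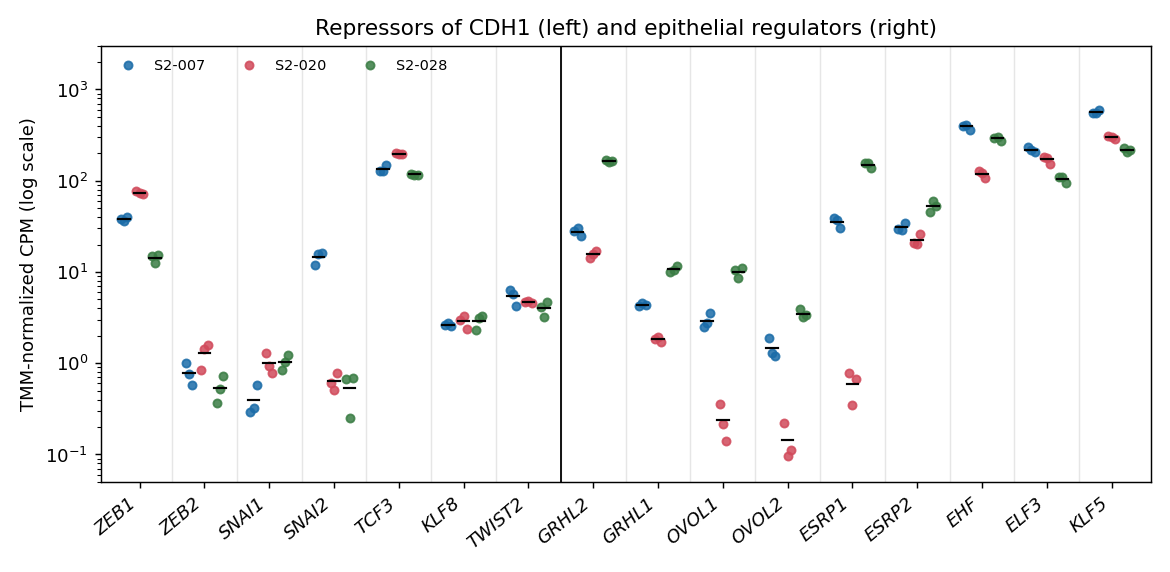
Level of 7 repressors of CDH1 (left of the line) and of 9 epithelial regulators (right) in TMM-normalized CPM (vertical axis, log scale), with points for libraries, colours for lines and bars for the mean of 3. ZEB1 is highest in S2-020 (71.0 to 77.4 CPM) and lowest in S2-028, SNAI2 is high in S2-007 only, and ESRP1, OVOL1 and OVOL2 are below 1 CPM in S2-020.

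Across the 9 libraries, which come from only 3 lines, the genes whose log2 CPM was most like that of CDH1 were UCA1 (Pearson's r 0.999), PLEKHG6 (0.999) and TNS4 (0.998), out of 10523 genes whose log2 CPM averaged 3 or more. UCA1, a long noncoding RNA, averaged 54.0 CPM in S2-007, 0.0745 in S2-020 and 351 in S2-028, and TNS4, a tensin family protein of focal adhesions, 327, 15.7 and 874. Among the genes most like CDH2 were CAMSAP2 (r 0.998) and AKR1C2 (0.998). AKR1C2, a steroid-converting enzyme, averaged 25.03, 93.5 and 2.51 CPM. Most like CDH3 were SFN (0.995), KIF20B (0.995) and HOXA10 (0.991), and SFN averaged 91.8, 49.6 and 103 CPM in the same order of lines. These values describe a pattern over 3 lines and say nothing of shared control.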

How the data were processed

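Strand-specific libraries of poly(A)-selected RNA, 3 per subline of SUIT-2 (S2-007, S2-028, S2-020), were sequenced. Per the submitters' processing notes the authors used Trimmomatic 0.39, BWA 0.7.17, SAMtools 1.12 and edgeR 3.16.5 with GRCh38.p14, and they deposited read counts per gene, whole numbers without normalization. The counting tool and its treatment of strand, overlapping genes and reads with several matches are not given in the sources used here. As BWA makes no spliced alignments, junction reads can be clipped or missed. The deposited table also holds 18 columns in all of normalized signal that the authors computed, which were not used here. It holds 2 lines that name no gene, which were left out. Between 60328748 and 86253923 reads per library were assigned to 42717 genes. Of the counts from 1 to 20, between 74.6% and 76.1% were even, as would be seen if the 2 reads of a pair were counted apart, in which case counts overstate the number of fragments seen.

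Counts were tested in R 4.3.3 with edgeR 4.0.16 (TMM, filterByExpr at minimum count 10 and minimum total 15, glmQLFit and glmQLFTest, with Benjamini-Hochberg adjustment over all genes tested), using the 6 libraries of the lines compared. Calls needed adjusted p under 0.05 and a 1.5-fold difference, as in the study. A standard error is the log2 fold change divided by the root of F. The CPM printed use TMM factors of all 9 libraries, and log2 CPM a prior count of 2, so ratios of printed CPM can differ slightly from fold changes. Positions and promoter sequences are those of RefSeq for GRCh38.p14 (99.6% of tested genes matched), and lengths, overlaps and shared 31-base words those of GENCODE v44. The procedure was tested on simulated counts with the same spread between libraries set for every gene. Of changes of 1 on the log2 scale, 80.2% (S2-028 against S2-007), 83.7% (S2-020 against S2-007) and 75.3% (S2-028 against S2-020) were recovered. For changes of 2 the shares were 98.9%, 99.1% and 96.4%, and 3, 7 and 9 unchanged genes were called. Real genes differ in spread, so these shares do not hold for each member. DESeq2 1.42.0, other scalings, no filter, a likelihood ratio test, a 1.5-fold null, 1 fit of all libraries, a replicate block and leaving out each library were the alternatives.

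The members and the gene lists were chosen with earlier results of these data known, so no list was tested as a set. Named were all members, every repressor of CDH1, at most 3 called genes per list with the smallest adjusted p, the 3 genes most like CDH1, CDH2 and CDH3, and SERPINB5. A result that needs a further gene is not reported here. Other genes were named after their values were seen, where a count was 5 or fewer or where the text says so.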

Additional observations from a re-analysis of the deposited data

How the results depend on the processing

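The log2 fold changes of the 10 members in 3 comparisons were recomputed under 14 alternatives each. Of these, 416 values kept their side of the thresholds and, where called, their direction. A further 3 lost the call (all CDH11 in S2-020 against S2-007), and 1 gained it (JUP in S2-028 against S2-007 without S2-028 replicate 3). No called value reversed, while the uncalled CTNNA2 in S2-020 against S2-007 ranged from -0.16 to 0.52 with single libraries left out. The number of members called stayed at 2 in S2-028 against S2-007, 6 in S2-020 against S2-007 and 5 in S2-028 against S2-020, except that it was 5 in S2-020 against S2-007 with the 1.5-fold null and ranged from 5 to 6 there, and from 2 to 3 in S2-028 against S2-007, with single libraries left out. With a 1.5-fold change as the null hypothesis, the genes called over the whole table dropped from 4858 to 2977 in S2-028 against S2-007, from 5769 to 3639 in S2-020 against S2-007 and from 5788 to 3638 in S2-028 against S2-020, as this null asks for more than a difference from 0. Leaving out single libraries gave 4641 to 4828, 5488 to 5791 and 5507 to 5723. Same-numbered libraries did not visibly deviate together (correlations of their deviations between -0.0219 and 0.0140). This cannot show whether they were prepared as sets, which the labels do not say. With the replicate block 4865, 5650 and 5716 genes and 2, 6 and 5 members were called. Coding length in place of exon length moved the E-cadherin share to 81.0%, 14.3% and 94.8% and the plakoglobin share to 35.9%, 3.85% and 41.6% (S2-007, then S2-020, then S2-028). Depth limits CDH13, CDH11 and CTNNA2, which rest on 6 to 120 reads per library.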
